A study of Mus musculus with 18 samples.

Results

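SIRT6 knockdown (KD) cells at 40 hr of adipogenic induction were compared with SIRT6 KD cells at 20 hr, the second step of the induction course in cells in which SIRT6, an NAD-dependent protein deacetylase, had been knocked down. The 6 arrays, 3 for each time, were chosen by their titles out of 18 arrays in the series, which also held SIRT6 KD cells before induction and WT cells at 0, 20 and 40 hr, 3 arrays for each of the 6 groups. Per the study's methods, the cells were 3T3-L1, a mouse preadipocyte line that grows as fibroblasts and accumulates lipid after hormonal induction. SIRT6 had been knocked down with a lentiviral short hairpin RNA, and the inducing mixture was IBMX (a phosphodiesterase inhibitor that raises cAMP), dexamethasone (a glucocorticoid) and insulin, which all 4 groups at 20 and 40 hr had received. The GEO labels give a genotype, a time point with no unit and whether the sample was treated, and they speak of mice and an inhibitor, so the cell line, the hairpin and the hours rest on the methods. The knockdown leaves the gene in place, and whether the lines were pools or single clones was not stated.

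Confluent preadipocytes are arrested in the cell cycle. The inducing hormones drive them synchronously back through S phase and mitosis, a step called mitotic clonal expansion, after which the cells leave the cycle and PPARγ and C/EBPα, the transcription factors that maintain the adipocyte state, turn on genes of lipid uptake and storage. In cycling cells the genes of DNA synthesis are controlled mostly through E2F sites and those of mitosis mostly through a promoter element called CHR, the cell cycle genes homology region.

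All values are log2 signals after robust multi-array averaging (RMA), as deposited, so a difference of 1 is a 2-fold change. Each gene was represented by its brightest array row, which gave 22180 genes. A gene was called changed when its adjusted p-value in limma was under 0.05. As a guide to background, 95% of the rows for olfactory and vomeronasal receptors, which these cells should not express, had a mean signal below 6.55, named here the receptor level, and 53.5% of the 22180 genes lay above it. Where the mean of 1 time lay below that level, a difference is given as measured against a signal that cannot be told from background, and its size is not exact. Genes below the receptor level only at 20 hr included Ces1f, Gpat3, Mertk, D630023F18Rik, Mir99a, Adipoq, Ppargc1a, Ppargc1b, Timp4 and Nnmt. Gpd1, Chrna7 and Gm5166 were further ones. Those below it only at 40 hr included H1f5, H2ac15, H2ac21, Dscc1 and Lyz2. H1f1, Lep, Cmtm8, Olfr462, Vmn1r79 and Vmn1r80 were among those below it at both times. Arrays of 1 group correlated at 0.99 or more over genes. However, all 3 SIRT6 KD arrays at 20 hr and 1 at 40 hr (replicate 1) correlated more closely, on average, with the WT arrays of the same time than with their own group, as did 1 WT array before induction, and nothing in the labels says that replicates came from separate cultures. The p-values then measure the spread between these arrays, which may be technical, although the study's methods speak of at least 3 biological replicates for cell culture work. With 3 arrays against 3, an exact permutation test of 1 gene cannot go below 0.1, so all calls come from the fit across genes.

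The targeted gene itself was measured near the receptor level. Sirt6 signals were 7.07, 6.80 and 6.86 in SIRT6 KD cells at 40 hr and 6.73, 6.98 and 6.97 at 20 hr, and the 2 times overlapped (log2 difference 0.02 ± 0.11 SE, adjusted p = 0.961, n = 3 each). The mean Sirt6 signal at 40 hr was 6.91 in SIRT6 KD arrays, against 7.13 in WT arrays, and at 20 hr it was 6.89 in SIRT6 KD arrays, against 7.19 in WT arrays. SIRT6 KD was lower in mean than WT at both times, but the individual arrays were only just apart at 40 hr, where the highest SIRT6 KD array read 7.07 and the lowest WT array 7.08, and they overlapped at 20 hr. How far SIRT6 protein was depleted was not measured on these arrays. Of the cell type markers, 11 of 12 preadipocyte or fibroblast markers lay above the receptor level, among them Pdgfra (11.6 at 40 hr and 11.27 at 20 hr), as did 3 of 9 macrophage markers (Cd68, Lyz2 and Fcgr1), 1 of 8 endothelial markers (Vwf), 3 of 8 skeletal muscle markers (Myod1, Des and Pax7) and 2 of 7 epithelial markers (Krt8 and Cldn4). Other markers of these types, such as Adgre1, Pecam1, Myog and Epcam, lay below it. The mean signal of the fibroblast list was 10.11 or more in every 40 hr array and 10.04 or less in every 20 hr array. Its 12 members did not move together: 3 were called higher and 2 lower, with a median change of 0.056. The largest rise was that of Lum, from 7.9 at 20 hr to 9.18 at 40 hr. By their means, 7 members were higher and 5 lower at 40 hr. The part of this list in the results was not tested. The macrophage list averaged 6.05 to 6.13 at 40 hr and 6.16 to 6.19 at 20 hr, where Lyz2 was the only member called (-0.80).

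Genes of mitosis were among the steepest falls in SIRT6 KD cells between 20 and 40 hr, genes of DNA replication fell less steeply, and the rises included Pparg, Fabp4 and other genes of the adipocyte. Of the 22180 genes, 826 rose (3.72%) and 1461 fell (6.59%), and the falls were also the steeper changes. With a fold change above 1.5 required as well, 208 genes rose (0.938%) and 550 fell (2.48%). Changes above 2-fold numbered 46 up and 249 down, and those above 3-fold 6 up and 82 down. Of the 50 genes that fell furthest, 29 belonged to the mitosis list and 0 to the DNA replication list, and none of the 50 that rose furthest belonged to either. Arrays of the 2 times did not overlap in 2411 genes that were higher (10.9%) and 2612 that were lower (11.8%) at 40 hr. The balance of calls depended on the scaling of the arrays: after centring each array on its median, 552 genes rose and 1722 fell, so that rises made up 24.3% of the calls and not 36.1%. The median change over all genes was 0.015. Of the 826 genes that rose, 561 had a lower mean at 20 hr than at 0 hr. Of the 1461 that fell, 1160 had a higher mean at 20 hr than at 0 hr. The 20 hr arrays enter both steps, so these 2 counts are descriptions.

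**Figure D1:**
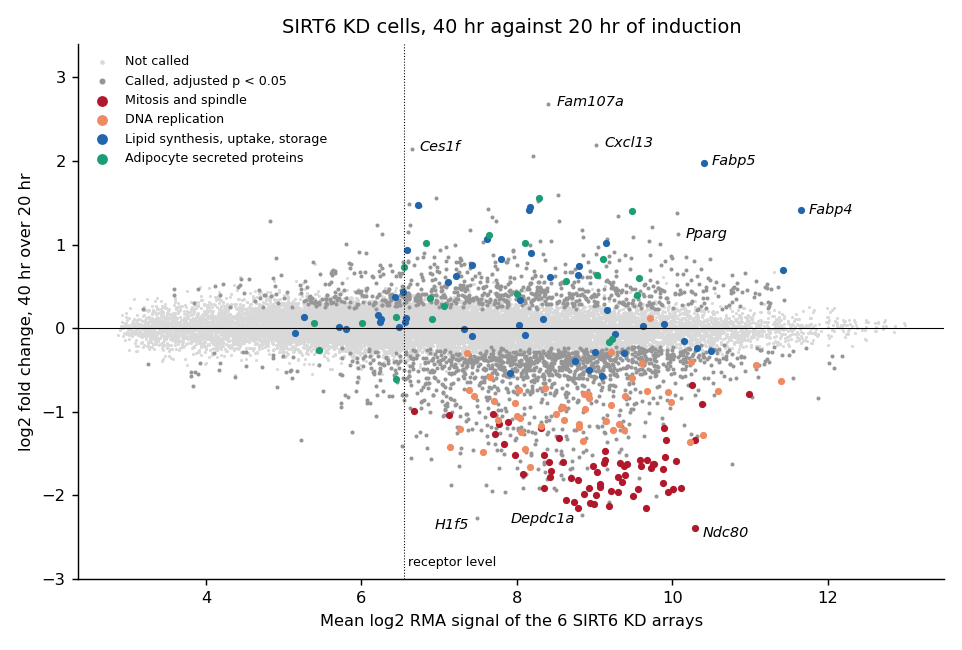
Change of each gene in SIRT6 KD cells, 40 hr over 20 hr (y axis, log2 fold change), against its mean log2 RMA signal over the 6 arrays (x axis). Dark grey points are called genes and pale points are not. Colours mark members of 4 gene lists whether called or not, and the dotted line is the receptor level of 6.55. All mitosis genes and all replication genes but Ctps lie below 0, while Fabp4, Fabp5 and Pparg lie above it.

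Of the 34 gene lists compared, the one for mitosis had the largest median change. All 66 measured genes of the mitosis and spindle list fell, against 6.59% of all genes, and all 66 did so by more than 1.5-fold, against 2.48% of all genes. Their median change was -1.665 (range -2.397 to -0.679). Ndc80, the kinetochore protein that holds microtubules to chromosomes, had signals of 9.15, 8.86 and 9.28 at 40 hr, against 11.55, 11.48 and 11.45 at 20 hr. No array of one time came near those of the other, and the difference was -2.40 ± 0.092 (SE, adjusted p = 7.05e-12), a 5.27-fold fall. Cep55, which works in the last cut between daughter cells, read 7.99, 7.85 and 7.97 at 40 hr and 10.03, 10.07 and 10.03 at 20 hr (-2.10 ± 0.074, adjusted p = 3.25e-12). Ect2, the exchange factor that starts the contractile ring, read 8.74, 8.56 and 8.44 at 40 hr and 10.77, 10.68 and 10.75 at 20 hr (-2.16 ± 0.089). In both genes the 3 arrays of each time lay far closer to each other than to the arrays of the other time. Aurkb, the kinase of the chromosomal passenger complex, read 8.14, 7.87 and 8.04 at 40 hr and 9.93, 10.09 and 10.03 at 20 hr (-2.00 ± 0.11, adjusted p = 1.19e-10).

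Other steep falls belonged to several stages of division. Cdc25c, the phosphatase that activates CDK1 at mitotic entry, fell by 2.16 on the log2 scale. The spindle pole gene Aspm (-2.08), the kinetochore gene Nuf2 (-2.01) and the mitotic motor genes Kif23 (-2.13), Kif14 (-2.09) and Kif2c (-1.99) fell alike. Depdc1a, a mitotic gene outside the list, read 7.67, 7.75 and 7.75 at 40 hr and 10.35, 9.81 and 9.73 at 20 hr (-2.24 ± 0.17, adjusted p = 9.77e-09). Gas2l3, Melk and Shcbp1, all known as genes of proliferating cells, also fell (-2.08, -2.06 and -2.01). Cdk1, the kinase that drives entry into mitosis, read 8.37, 8.17 and 8.42 at 40 hr and 9.78, 9.93 and 10.08 at 20 hr (-1.61 ± 0.11, adjusted p = 4.17e-09). The proliferation marker Mki67 had a mean of 9.25 at 40 hr and 10.85 at 20 hr (-1.59). The smallest fall of the list was -0.679, still more than 1.5-fold. In a bulk RNA sample, fewer dividing cells and less of each transcript per dividing cell cannot be told apart.

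For this list 20 hr was a high point and not the resting level. In SIRT6 KD cells its median difference from 0 hr was 1.167 at 20 hr and -0.493 at 40 hr. All 66 members were above their 0 hr mean at 20 hr, and 63 were below it at 40 hr. Ndc80 averaged 10.51 at 0 hr, 11.49 at 20 hr and 9.09 at 40 hr, so its level at 40 hr was below that of the confluent cells before induction. These are descriptions, since the 20 hr arrays enter both steps.

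**Figure D2:**
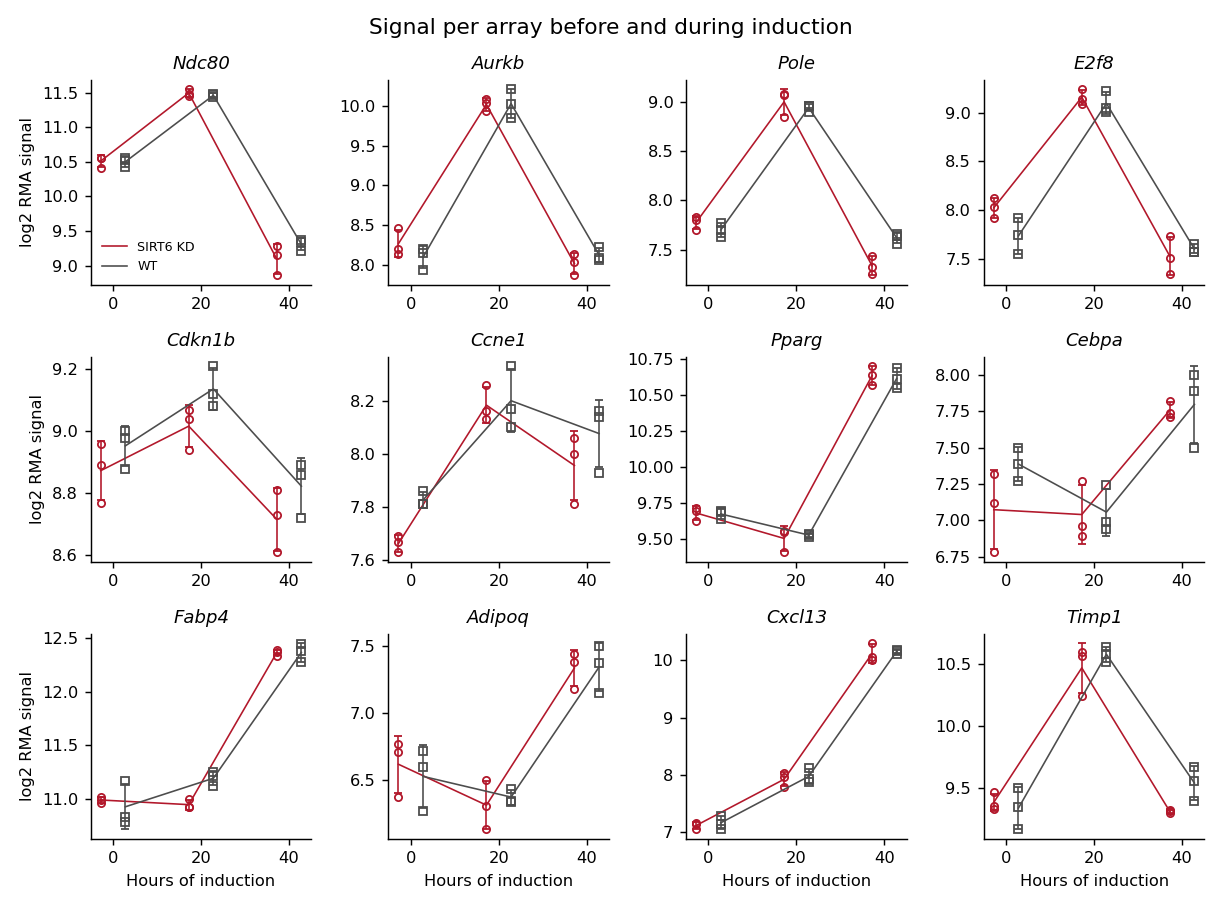
Log2 RMA signal of 12 genes (y axis) at 0, 20 and 40 hr of induction (x axis), with SIRT6 KD arrays in red circles drawn left of WT arrays in grey squares. Each point is 1 array, lines join group means and bars are the SD of 3 arrays; Ndc80, Aurkb, Pole, E2f8 and Timp1 peak at 20 hr in both genotypes, while Pparg, Fabp4 and Cxcl13 are highest at 40 hr. Each panel has its own scale, which does not start at 0.

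The promoters of the mitotic genes were searched for the elements that are known to time them. A RefSeq window of 300 bases, from 250 before to 50 after the annotated start (build GRCm38.p6), was given for 16918 of the 22180 genes. The CHR was searched as TTTGAA or TTCGAA on both strands. It was found in 42 of 55 windows of the mitosis list (76.4%), against 17.3% of all windows, 25.1% of the windows of genes that fell, and 13.1% of those of genes that rose. Of the 203 windows of genes that fell by more than 2-fold, 48.3% held it. Of the 42 windows, 39 had the match between 100 bases before and 50 bases after the start. The E2F site, searched as TTCCCGC or TTGGCGC on both strands, was in 18.2% of the mitosis windows, against 8.93% of all windows. A CCAAT box, a general promoter element that often stands beside the CHR, was in 72.7% of the mitosis windows, against 38.4% of all. An E2F match of the form TTGGCGC can share bases with a CCAAT box read on the other strand. A match is a run of letters and does not show that a factor is bound there.

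For 4 genes among the steepest falls of the list whose windows held the CHR near the start, the sequence is given as the 150 bases from 100 before to 50 after the RefSeq start of transcription, 5′ to 3′ along the strand of the gene, so that the last 50 bases are transcribed. Capitals mark the CHR, as TTTGAA or, where it lies on the other strand, TTCAAA.
Ndc80 (chr17:71526808-71526957, minus strand): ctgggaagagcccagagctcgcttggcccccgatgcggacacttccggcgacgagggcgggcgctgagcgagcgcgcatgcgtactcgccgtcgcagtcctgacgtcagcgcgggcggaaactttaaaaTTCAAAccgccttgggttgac
Ect2 (chr3:27153829-27153978, minus strand): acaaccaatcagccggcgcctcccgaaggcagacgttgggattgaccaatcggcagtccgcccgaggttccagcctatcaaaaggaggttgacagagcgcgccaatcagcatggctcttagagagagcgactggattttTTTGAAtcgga
Kif23 (chr9:61946750-61946899, minus strand): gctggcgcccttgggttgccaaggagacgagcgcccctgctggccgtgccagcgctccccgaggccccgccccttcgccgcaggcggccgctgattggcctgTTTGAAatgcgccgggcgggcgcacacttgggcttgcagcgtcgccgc
Cep55 (chr19:38054884-38055033, plus strand): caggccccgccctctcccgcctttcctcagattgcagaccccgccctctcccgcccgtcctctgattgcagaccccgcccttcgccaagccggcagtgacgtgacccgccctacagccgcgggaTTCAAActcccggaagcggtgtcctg

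In all 4 the CHR match lay just after the annotated start. The Ect2 stretch also holds CCAAT boxes before the match, and the Kif23 stretch holds such a box read on the other strand.

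DNA replication genes fell as well, with a smaller median change. Of the 48 measured genes of the replication and nucleotide synthesis list, 46 fell (95.8%, against 6.59% of all genes) and none rose. The fall was more than 1.5-fold in 42 of them (median of the list -0.933, lowest -1.665). Pole, the catalytic subunit of the leading strand polymerase, read 7.44, 7.32 and 7.25 at 40 hr and 9.08, 9.07 and 8.85 at 20 hr (-1.66 ± 0.080, adjusted p = 2.31e-11). A second, dimmer array row of Pole, with a mean of 5.63 and so below the receptor level, differed by -0.19 (adjusted p = 0.507). Pole2, a further subunit of the same polymerase, read 7.42, 7.35 and 7.36 at 40 hr and 8.85, 8.82 and 8.78 at 20 hr (-1.44 ± 0.11). Gmnn, the inhibitor of origin relicensing (-1.49), Dscc1 of a clamp loader (-1.43), the primase subunit Prim1 (-1.37) and the helicase subunit Mcm5 (-1.35) fell too. The sliding clamp gene Pcna fell less, with means of 10.04 and 10.44 at 40 and 20 hr (-0.40, adjusted p = 0.000448). The 2 members that did not pass the test were Cdt1, the origin licensing factor (-0.29, adjusted p = 0.0915), and Ctps, the CTP synthase (0.12, adjusted p = 0.492).

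As in mitosis, every measured replication gene was higher at 20 hr than before induction, with a median difference of 0.836. At 40 hr the median difference from 0 hr was -0.044, and 28 of the 48 were below it.

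In the promoters of this list, an E2F site was in 19 of 38 windows (50%), against 8.93% of all windows, 18.4% of those of genes that fell and 8.63% of those of genes that rose, and 17 of the 19 had it between 100 bases before and 50 after the start. The CHR was in 15.8% of these windows, near the 17.3% of all windows. The same 150 bases are given for Pole2, Prim1 and Rrm1, the large subunit of ribonucleotide reductase that makes the deoxynucleotides (-1.28), with the E2F site in capitals as TTCCCGC or, on the other strand, GCGCCAA.
Pole2 (chr12:69228141-69228290, minus strand): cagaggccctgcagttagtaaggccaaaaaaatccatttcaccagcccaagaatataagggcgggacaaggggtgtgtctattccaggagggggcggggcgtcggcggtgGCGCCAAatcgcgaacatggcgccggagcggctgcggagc
Prim1 (chr10:128015115-128015264, plus strand): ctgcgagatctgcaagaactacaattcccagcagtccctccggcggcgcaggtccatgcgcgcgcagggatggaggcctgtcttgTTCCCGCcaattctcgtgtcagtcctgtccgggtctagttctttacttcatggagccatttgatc
Rrm1 (chr7:102441595-102441744, plus strand): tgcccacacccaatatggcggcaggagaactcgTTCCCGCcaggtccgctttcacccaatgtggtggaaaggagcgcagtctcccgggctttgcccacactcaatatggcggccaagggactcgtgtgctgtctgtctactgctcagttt

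**Figure D3:**
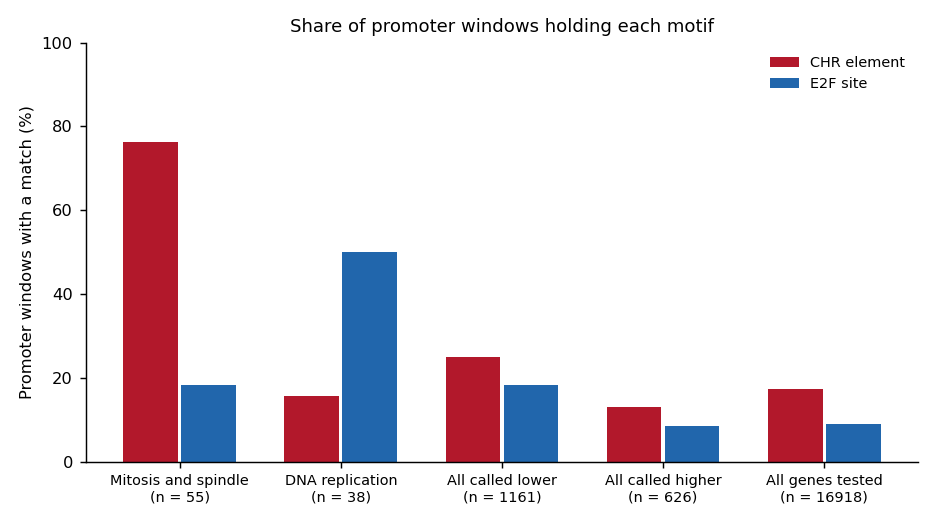
Share of promoter windows (y axis, percent) with at least 1 match to the CHR (red) or the E2F site (blue), for the mitosis list, the replication list, all genes called lower, all called higher and all genes tested (x axis, with the number of windows). The CHR bar is tallest in the mitosis list (76.4%) and the E2F bar in the replication list (50%); no error is drawn, since these are shares of gene lists.

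Regulators of G1 and S phase were covered by 1 list. Of 32 measured cyclins, CDKs, inhibitors and E2F factors, 13 fell (40.6%, against 6.59% of all genes) and none rose (median -0.247). The falls were led by Cks2, a CDK1 and CDK2 accessory subunit (-1.63), the repressor E2Fs E2f8 (-1.62) and E2f7 (-1.46), the pocket protein Rbl1 (-1.51) and the CDK4 and CDK6 inhibitor Cdkn2d (-1.04). E2f8 read 7.74, 7.35 and 7.51 at 40 hr and 9.09, 9.24 and 9.14 at 20 hr (adjusted p = 1.27e-09). Among the members that were not called, Ccnd1 differed by -0.20 (adjusted p = 0.227), Ccnd2 by -0.13 and the activator E2f1 by -0.10.

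Several of these genes were among those the study measured, there as proteins by western blot. The arrays measure RNA. The study's result on p27 concerned the level and degradation of the protein, which the arrays do not measure. Ccna2, the cyclin of S phase and G2, read 9.26, 9.17 and 9.45 at 40 hr and 10.58, 10.50 and 10.39 at 20 hr (-1.20 ± 0.094, adjusted p = 2.05e-08). Cdk2, the kinase it binds, read 7.62, 7.70 and 7.50 at 40 hr and 8.17, 8.31 and 8.04 at 20 hr (-0.57 ± 0.082, adjusted p = 6.04e-05). The groups did not overlap in either gene. Cdkn1b encodes p27, the CDK2 inhibitor that holds cells in G1. Its signals were 8.73, 8.61 and 8.81 at 40 hr and 9.04, 9.07 and 8.94 at 20 hr (-0.30 ± 0.080, adjusted p = 0.0169). This small call was lost when only the 6 arrays entered the fit (adjusted p = 0.109), and without replicate 2 at 40 hr (0.0949) or at 20 hr (0.0744). Ccne1, the G1 to S cyclin, read 8.0, 8.06 and 7.81 at 40 hr and 8.16, 8.26 and 8.13 at 20 hr, without overlap but short of the threshold (-0.23 ± 0.086, adjusted p = 0.108).

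Histone genes that are made for S phase were mostly dim, with 13 of 29 above the receptor level. Of the 29, 11 fell (37.9%, against 6.59% of all genes). H1f5, a linker histone, read 6.30, 6.08 and 6.65 at 40 hr and 8.48, 8.91 and 8.46 at 20 hr (-2.27 ± 0.18, adjusted p = 1.56e-08). Its mean at 40 hr, 6.35, lay below the receptor level. H2ac15 (-1.65), H1f1 (-1.25), H2ac20 (-1.22) and H2ac21 (-1.05) followed. These genes belong to families of near-identical copies, so the probes of 1 copy may also measure others. The remaining 18 did not pass the test.

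**Figure D4:**
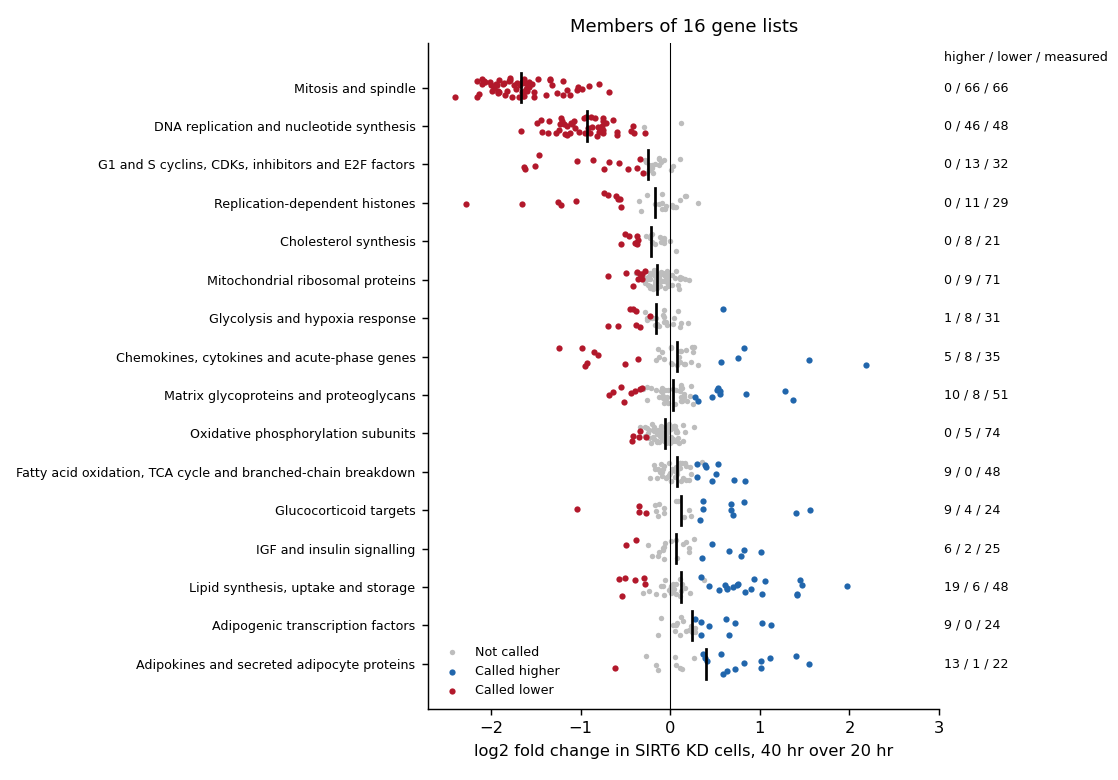
Log2 fold change in SIRT6 KD cells, 40 hr over 20 hr (x axis), of every measured member of 16 gene lists (rows). Each point is 1 gene, coloured by its call, the black bar is the list's median, and the numbers at the right count members called higher, called lower and measured; the lists run from mitosis, where all 66 fell, to adipokines, where 13 of 22 rose.

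On the adipocyte side, several transcription factors that carry differentiation rose. Of 24 measured adipogenic factors, 9 rose, against 3.72% of all genes, and none fell (median 0.241). The rises numbered 6 after median centring, without replicate 1 or 2 at 20 hr, and without replicate 1 at 40 hr. Pparg, the nuclear receptor without which no adipocyte forms, read 10.64, 10.57 and 10.70 at 40 hr and 9.55, 9.56 and 9.41 at 20 hr (1.13 ± 0.070, adjusted p = 7.2e-10), a 2.19-fold rise with no overlap. Its mean at 0 hr was 9.69, close to that at 20 hr. Cebpa, its partner, read 7.82, 7.71 and 7.74 at 40 hr and 6.89, 7.27 and 6.96 at 20 hr (0.72 ± 0.14, adjusted p = 0.00163). The coactivators Ppargc1b and Ppargc1a rose by 1.02 and 0.63, and the PPARγ dimer partner Rxra by 0.43. Egr2, also called Krox20, an early factor of induction, rose by 0.66, from a mean of 7.18 at 20 hr to 7.84 at 40 hr. Both means lay below its 0 hr mean of 8.96.

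The early C/EBP factors, which act upstream of Pparg, were measured too. Cebpb read 7.42, 7.32 and 7.49 at 40 hr and 7.32, 7.77 and 7.56 at 20 hr and overlapped (-0.14 ± 0.13, adjusted p = 0.601). Cebpd read 8.40, 8.25 and 8.51 at 40 hr and 7.94, 7.95 and 8.23 at 20 hr (0.34 ± 0.11, adjusted p = 0.0476), a call at the edge of the threshold that was lost in 10 of the alternative settings, among them those without replicate 1 (adjusted p = 0.142) or 2 (0.175) at 20 hr and without replicate 1 (0.102) or 3 (0.183) at 40 hr. Both averaged below these levels at 0 hr (6.87 for Cebpb and 7.21 for Cebpd). Klf4, a further early factor, differed by 0.08 (adjusted p = 0.756).

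Many genes of lipid uptake and storage rose. Of 48 measured lipid genes, 19 rose (39.6%, against 3.72% of all genes) and 6 fell (12.5%, against 6.59%), with a median of 0.119. Fabp4, the fatty acid carrier that marks adipocytes, read 12.34, 12.39 and 12.37 at 40 hr and 10.92, 11 and 10.92 at 20 hr (1.42 ± 0.089, adjusted p = 8.66e-10), a 2.67-fold rise. Its relative Fabp5 read 11.39, 11.41 and 11.36 at 40 hr and 9.34, 9.49 and 9.42 at 20 hr (1.97 ± 0.088), and its 4 array rows gave rises of 1.78 to 2.31. In both genes the 3 arrays of a time were close together and the times did not overlap. Cd36, the fatty acid transporter, read 9.06, 8.74 and 8.87 at 40 hr and 7.52, 7.48 and 7.33 at 20 hr (1.45 ± 0.11, adjusted p = 1.58e-08).

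Several enzymes that build and break down triglyceride rose. Gpat3, which starts glycerolipid synthesis, rose by 1.47, against a 20 hr mean of 5.99 below the receptor level (its dimmer second row by 0.22, adjusted p = 0.556), and Dgat2 and Dgat1, which add the last acyl chain, rose by 1.06 and 1.02. The triglyceride lipase Pnpla2 read 9.16, 8.77 and 8.67 at 40 hr and 7.38, 7.47 and 7.50 at 20 hr (1.42 ± 0.11), and the hormone-sensitive lipase Lipe rose by 0.83. Lipoprotein lipase Lpl rose by 0.70, with means of 11.77 at 40 hr and 11.07 at 20 hr. The lipid droplet coat genes Plin2 and Plin1 rose by 0.75 and 0.55. The 6 that fell were the desaturases Fads2 (-0.57) and Fads1 (-0.50), Tmem97 (-0.54), the elongase Elovl6 (-0.39), acetyl-CoA carboxylase Acaca (-0.29, adjusted p = 0.0424) and the acyl-CoA synthetase Acsl4 (-0.28, adjusted p = 0.0489). Fatty acid synthase Fasn (-0.07) and the desaturase Scd1 (-0.24) did not pass the test. None of the 6 falls reached 1.5-fold.

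Of the 34 lists, secreted adipocyte proteins had the highest share of rises, 13 of 22 measured (59.1%, against 3.72% of all genes), with 1 fall (median 0.403). Angptl4, an inhibitor of lipoprotein lipase that is a target of PPARγ and of glucocorticoids, read 10.27, 10.16 and 10.13 at 40 hr and 8.72, 8.92 and 8.72 at 20 hr (1.40 ± 0.074, adjusted p = 1.02e-10). Adipoq, which encodes adiponectin, read 7.38, 7.18 and 7.44 at 40 hr and 6.14, 6.31 and 6.50 at 20 hr (1.02 ± 0.13, adjusted p = 1.42e-05). The 20 hr signals of Adipoq lay below the receptor level and the 40 hr signals above it. Its 0 hr signals were 6.38, 6.77 and 6.71, with a mean of 6.62, above its 20 hr mean of 6.32. Resistin (Retn) rose by 1.11, insulin-like growth factor Igf1 by 1.01 and the acute-phase gene Saa3 by 1.55. The fall was the peptide hormone gene Apln (-0.61). Leptin (Lep) averaged 5.32 at 40 hr and 5.59 at 20 hr, below the receptor level at both times (-0.27, adjusted p = 0.0746).

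The genes that rose furthest were not all of the adipocyte programme. Fam107a, an actin-associated gene that responds to glucocorticoids, read 9.73, 9.82 and 9.69 at 40 hr and 7.22, 7.07 and 6.90 at 20 hr (2.68 ± 0.15, adjusted p = 1.97e-10), a 6.42-fold rise, and its second row rose by 1.40. Its mean before induction was 5.65, below the receptor level. Cxcl13, a chemokine that attracts B cells, read 10, 10.06 and 10.30 at 40 hr and 7.96, 8.03 and 7.79 at 20 hr (2.19 ± 0.094, 4.56-fold). Ces1f, a carboxylesterase, read 7.68, 7.69 and 7.79 at 40 hr and 5.94, 5.31 and 5.47 at 20 hr, below the receptor level (measured difference 2.15 ± 0.16). In each of the 3 the groups were apart by far more than the spread within a group. The keratin gene Krt9 rose by 2.06, the acute-phase gene Orm3 by 1.60, the receptor kinase gene Mertk by 1.56 and Lrig1, a brake on growth factor receptors, by 1.52. The uncharacterised D630023F18Rik rose by 1.46 and the small nucleolar RNA gene Rnu3a by 1.42, the second with arrays as far apart as 7.67 and 8.76 at 40 hr.

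A microRNA locus was among them. The Mir99a row read 7.24, 7.44 and 7.37 at 40 hr and 6.21, 5.55 and 5.85 at 20 hr (1.48 ± 0.19, adjusted p = 1.28e-05), and its 0 hr mean was 7.65, so that 20 hr was the low point. The row measures RNA of the precursor locus and not the mature microRNA. The host transcript Mir99ahg, looked up after these values were seen, rose by 0.93 (adjusted p = 0.00551), and Mirlet7c-1, the neighbour in the same transcript, differed by 0.76 (adjusted p = 0.0699). The RefSeq mature form, at chr16:77598940-77598961 on the plus strand of GRCm38.p6, is shown with its seed, bases 2 to 8, in capitals.
mmu-miR-99a-5p: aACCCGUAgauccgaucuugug

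Cholesterol synthesis genes were measured from before induction. The median member differed from its 0 hr mean by -0.581 at 20 hr and by -0.719 at 40 hr. Of 21 measured enzymes and regulators, 8 fell (38.1%, against 6.59% of all genes) and none rose (median -0.219). No fall reached 1.5-fold. Sqle, the squalene epoxidase, read 9.25, 9.11 and 9.25 at 40 hr and 9.76, 9.80 and 9.70 at 20 hr (-0.55 ± 0.089, adjusted p = 0.000227), and its 0 hr mean was 10.47. Ebp (-0.50), Fdft1 (-0.46), Fdps (-0.40) and the regulator Srebf2 (-0.38) fell too, while Hmgcs1 differed by -0.07 (adjusted p = 0.688). The Srebf2 arrays overlapped between the times, and its call was lost without replicate 2 or 3 of either time (adjusted p = 0.0619 to 0.0844). That of Fdps was lost with only the 6 arrays in the fit (adjusted p = 0.06). Without 20 hr replicate 2, 4 of the 21 genes fell. At 40 hr 19 of the 21 genes were below their 0 hr mean. In WT cells 3 of the 21 fell (median -0.088). The sterol element TCACNCCAC, searched on both strands, was in 1 of 17 windows of this list (1.22% of all windows), and a CCAAT box in 15 of 17 (88.2%, against 38.4% of all).

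Mitochondrial genes were covered by 3 lists. Of 48 genes of fatty acid oxidation, the TCA cycle and branched-chain amino acid breakdown, 9 rose and none fell (median 0.072). The rises made up 18.8%, against 3.72% of all genes. Acadm, the medium-chain acyl-CoA dehydrogenase, read 10.41, 10.31 and 10.27 at 40 hr and 9.53, 9.72 and 9.61 at 20 hr (0.71 ± 0.072, adjusted p = 6.28e-07). Aldh6a1 and Mccc1, which degrade branched-chain amino acids, rose by 0.84 and 0.53, and the carnitine acyltransferase Cpt2 by 0.51. Of 74 oxidative phosphorylation subunits none rose and 5 fell (median -0.056), a share near the 6.59% of all genes, and without replicate 2 at 20 hr or at 40 hr the falls were 3 or 2. Of 71 mitochondrial ribosomal proteins 9 fell (12.7%, median -0.153), led by Mrpl51 (-0.69 ± 0.083). Without replicate 2 of either time the count of ribosomal proteins was 2, and it was 17 when dim rows were left out of the fit and 15 after median centring. Of 31 genes of glycolysis and the hypoxia response 8 fell (25.8%), among them the glucose transporter Slc2a1 (-0.58) and the mitophagy receptor Bnip3 (-0.69). The angiogenic factor Vegfa rose by 0.59. That count of 8 was 4 without 20 hr replicate 2, and 5 without 20 hr replicate 3 or 40 hr replicate 2 or 3.

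Among inhibitors of adipogenesis, 3 of 30 rose and 3 fell (10% each, against 3.72% and 6.59% of all genes), with a median change of 0.004. Id2, which sequesters basic helix-loop-helix factors, read 8.81, 8.68 and 8.84 at 40 hr and 10.08, 10.13 and 10.05 at 20 hr (-1.31 ± 0.084, adjusted p = 1.24e-09), and Id3 fell by 0.50. Dlk1, the preadipocyte surface protein, fell by 0.36 (adjusted p = 0.0273), a call lost without replicate 2 or 3 of either time (0.081 to 0.125). The Notch ligand Jag1 and the receptor Notch1 rose by 0.74 and 0.35, the call of Notch1 being lost with only the 6 arrays in the fit (adjusted p = 0.0746).

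Matrix genes moved in both directions. Of 51 matrix glycoproteins and proteoglycans, 10 rose (19.6%, against 3.72% of all genes) and 8 fell (15.7%, against 6.59%). The falls numbered 5 without 20 hr replicate 2 or 3 or 40 hr replicate 3. Dpt, dermatopontin, read 10.94, 10.63 and 10.67 at 40 hr and 9.18, 9.38 and 9.56 at 20 hr (1.38 ± 0.13, adjusted p = 2.2e-07), lumican (Lum) rose by 1.28 and the basement membrane nidogen Nid2 by 0.85. Fibromodulin (Fmod) fell by 0.68 and Tgfbi by 0.64. Timp1, an inhibitor of metalloproteinases, read 9.29, 9.32 and 9.31 at 40 hr and 10.60, 10.57 and 10.24 at 20 hr (-1.17 ± 0.10), while Timp4 and the protease gene Adamts12 rose by 0.85 and 0.86. Of 44 collagens only Col6a3 (0.44) and Col1a1 (-0.41) were called, 2.27% in each direction, and without 20 hr replicate 3 there were 4 rises. Of 32 actin and stress fibre genes 6 fell (18.8%), led by Acta2 and Actn1 (-0.53 each), and Mylk rose by 0.65.

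Inflammatory genes also moved both ways. Of 35 chemokines, cytokines and acute-phase genes, 5 rose (14.3%, against 3.72% of all genes) and 8 fell (22.9%, against 6.59%). The falls were Cxcl5 (-1.24), Ccl2 (-0.98), Ptgs2 (-0.95), Il6 (-0.93), Cxcl1 (-0.85), Il11 (-0.81), Ccl7 (-0.50) and Vcam1 (-0.36), most of them genes that inflammatory signals through NF-κB induce. The rises were Cxcl13, Saa3, haptoglobin (Hp, 0.83), Il33 (0.76) and Orm1 (0.57), of which Saa3, Hp and Orm1 are acute-phase proteins. Ccl2, the chemokine that recruits monocytes, read 7.34, 7.06 and 7.49 at 40 hr and 8.32, 8.41 and 8.12 at 20 hr, and its 0 hr mean was 10.03.

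Targets of the inducing hormones were followed next. Of 24 glucocorticoid targets 9 rose (37.5%, against 3.72% of all genes) and 4 fell (16.7%, against 6.59%), with a median of 0.121. The falls numbered 1 without replicate 2 of either time and 2 without replicate 1 of either. Fkbp5 and Zbtb16, classical glucocorticoid-induced genes, rose by 0.67 and 0.68, glutamine synthetase (Glul) by 0.70 and Pik3r1, a regulatory subunit of PI 3-kinase, by 0.83, whereas the stress gene Gadd45b fell by 1.04. The Glul mean was 7.32 at 0 hr, 9.83 at 20 hr and 10.53 at 40 hr. Of 25 cAMP targets and phosphodiesterases 4 rose (16%) and 5 fell (20%), with Gem at 0.84 and the orphan receptor Nr4a2 at -0.98. There were 2 falls without 20 hr replicate 2, 3 falls without 40 hr replicate 2, and 2 rises without replicate 3 of either time. Of 25 IGF and insulin signalling genes 6 rose (24%) and 2 fell (8%). The falls numbered 1 without replicate 2 or 3 at 20 hr or replicate 1 or 3 at 40 hr. The insulin receptor substrate Irs1 read 8.32, 8.25 and 8.21 at 40 hr and 7.22, 7.57 and 7.64 at 20 hr (0.79 ± 0.12), still under its 0 hr mean of 9.64.

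The genes on which the study centred were not called between these times. Kif5c, a kinesin heavy chain best known from neurons, read 7.33, 7.29 and 7.36 at 40 hr and 7.47, 7.37 and 7.41 at 20 hr (-0.09 ± 0.097, adjusted p = 0.673). The arrays did not overlap, but the gap was within the error of the fit. Its means in SIRT6 KD and WT cells were 7.33 and 6.69 at 40 hr, and 7.42 and 6.77 at 20 hr, a difference between genotypes that was not tested here. None of the 8 kinesin-1 and casein kinase CK2 subunits was called, with Csnk2a1 at -0.04 and Csnk2a2 at -0.02, and Trim30d differed by 0.19 (adjusted p = 0.395).

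The same step was measured in WT cells, on other arrays. In WT cells 819 genes rose (3.69%) and 1181 fell (5.32%). Of the 2287 genes called in SIRT6 KD cells, 2190 changed in the same direction in WT cells, 1493 were called there with the same sign and 0 with the opposite sign. The 1493 genes were shared out of 2287 called in SIRT6 KD and 2000 called in WT cells. All 66 mitosis genes fell in WT cells as well (median -1.665 in SIRT6 KD and -1.605 in WT cells), as did 46 of the 48 replication genes (medians -0.933 and -0.812). Among adipogenic factors 9 rose in SIRT6 KD (6 in the settings named above) and 8 in WT cells. Among lipid genes 19 rose in SIRT6 KD and 20 in WT cells, and among secreted proteins 13 in each. Pparg rose by 1.13 in SIRT6 KD and 1.08 in WT cells, and Fabp4 by 1.42 and 1.18.

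No gene passed the test of the difference between the 2 changes (0 called by limma, smallest adjusted p = 0.786), while 974 genes had an unadjusted p under 0.05. Without variance moderation the count was also 0. A missing call does not show that the changes were equal. For genes called in SIRT6 KD cells, the change differed from that in WT cells by a median of 0.118 in absolute size. Ndc80 fell by 2.40 in SIRT6 KD and 2.15 in WT cells, and Pole2 by 1.44 and 0.99. Dpt rose by 1.38 in SIRT6 KD and 0.88 in WT cells (unadjusted p of the difference 0.0141).

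The smallest unadjusted p-values for the difference belonged to Zfp937, a zinc finger gene, and to Gpd1, which makes the glycerol phosphate backbone of triglyceride. Gpd1 read 6.60, 6.53 and 6.64 at 40 hr and 6.57, 6.51 and 6.49 at 20 hr in SIRT6 KD cells, near the receptor level and with a change of 0.07 (adjusted p = 0.672), against 0.58 in WT cells (adjusted p = 2.36e-05; difference unadjusted p = 0.000163, adjusted p = 0.786). Its second, dimmer row differed by 0.18 in SIRT6 KD cells. Zfp937 differed by 0.36 in SIRT6 KD and -0.25 in WT cells (unadjusted p = 0.000146), and its second row by -0.19 in SIRT6 KD cells. The others of the 10 smallest were Gm5166, Chrna7, Vmn1r79, Poglut3, Cmtm8, Vmn1r80, Map2k3os and Olfr462. Of these Vmn1r79, Vmn1r80, Olfr462 and Cmtm8 had signals below the receptor level at both times.

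**Figure D5:**
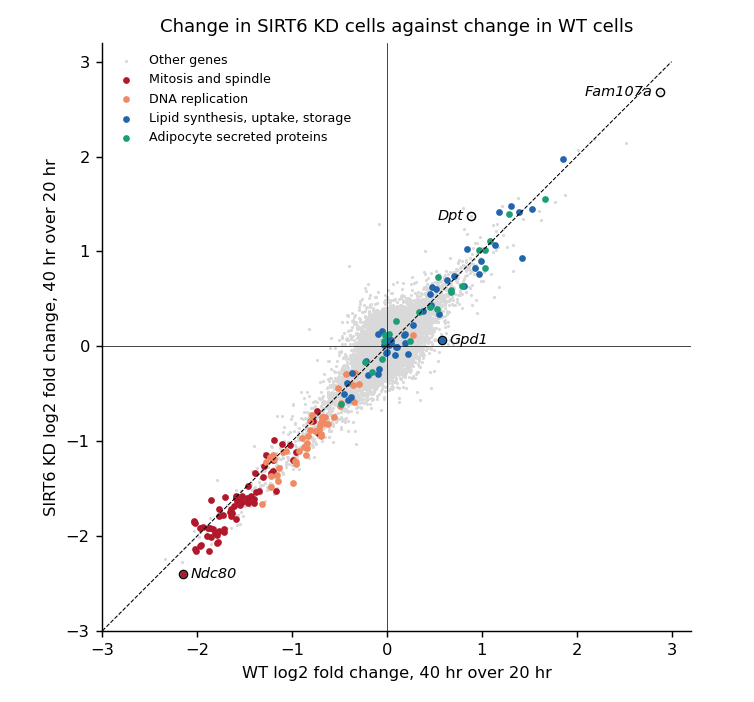
Log2 fold change 40 hr over 20 hr in SIRT6 KD cells (y axis) against that in WT cells (x axis) for all 22180 genes, with 4 gene lists in colour and the dashed line of equal change. Mitosis genes lie along the line at the lower left. Lipid genes lie on both sides of 0 in SIRT6 KD cells, 33 above and 15 below. Gpd1 sits at 0.07 in SIRT6 KD and 0.58 in WT cells and Dpt at 1.38 and 0.88. No gene passed the test of the difference.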

How the data were processed

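Total RNA was hybridised to Affymetrix Mouse Gene ST arrays by the authors, who deposited 1 log2 signal per transcript cluster after RMA, per the submitters' processing notes; the software version and probe annotation were not given in the sources used here. RMA puts all arrays on 1 distribution, which can hide a global change, and arrays have no read depth: precision rests on 3 arrays a group. Of 41345 clusters, 23521 had exactly 1 gene symbol in the platform table, 1820 had several and 16004 were not listed there. The 23521 were fitted in limma 3.58.1 (R 4.3.3) as 6 group means over 18 arrays, with Benjamini-Hochberg adjustment over all of them (12 residual and 6.37 prior degrees of freedom). Results are given for the brightest cluster of each of 22180 genes. Values with ± are SE. Tested on simulated data, the fit recovered most changes of known size, fewer of the smaller than of the larger.

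The members and the 34 gene lists and 5 marker lists were chosen with earlier results of these data known. Named are the 15 largest rises and falls that passed the test, did not overlap and lay above the receptor level in the brighter group; the 5 largest called members of each list; genes the study measured; and 10 genes with the smallest p for the difference from WT. Other list members named were chosen after their values were seen. Promoters were searched with Python 3.11.15.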

Additional observations from a re-analysis of the deposited data

Results flagged for a closer look

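Signal changed between the times in array rows that the gene comparisons leave out. Of 17824 transcript clusters without exactly 1 gene symbol, of which 1820 carry several symbols, 266 were called higher in SIRT6 KD cells at 40 hr than at 20 hr (largest log2 difference 2.24) and 310 were called lower (largest -2.02), by limma in a fit of all clusters. They are unnamed here and were not analysed further. No group has the 4 arrays that a search for single deviating arrays needs, and no gene was called for a difference between SIRT6 KD and WT cells in the change from 20 to 40 hr.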

How the results depend on the processing

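The number of genes called between 40 and 20 hr in SIRT6 KD cells was 2287. It was 1408 with only the 6 arrays in the fit, 1439 at an adjusted p under 0.01, 765 by unadjusted p under 0.05 plus a 1.5-fold change, and 1717 to 2358 when 1 array was left out. In WT cells it was 2000, and 2015, 1293, 719 and 1528 to 1669 under the same settings. For the difference between the genotypes in this change it was 0, and 64 by unadjusted p with the 1.5-fold change. The replicate numbers did not pair the arrays (correlations of same-numbered deviations -0.188, -0.203 and 0.019 in SIRT6 KD); with the replicate block the counts were 2101, 1891 and 0. Of 171 called named genes, 132 kept call and direction under every alternative, 39 lost the call under some and 0 reversed. Among uncalled genes near 0, some changed sign. Leaving out 1 array at a time gave -0.0663 to 0.0706 for Sirt6, -0.0966 to 0.00607 for Csnk2a1, -0.0577 to 0.0506 for Csnk2a2, -0.0652 to 0.0581 for Kif5b and -0.0734 to 0.207 for Klf4. Median centring gave -0.0312 for Sirt6. Cyclic loess gave -0.0152 for Sirt6, 0.0124 for Csnk2a2 and 0.0226 for Kif5b. Array weights gave -0.0147 for Sirt6 and 4e-04 for Kif5b. The cause was not tested.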

Other observations

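Further gene groups in SIRT6 KD cells, 40 hr against 20 hr, are given here as values. Over all genes 3.72% rose and 6.59% fell. Of 18 clock genes 4 rose and 1 fell: the repressors Cry1 and Cry2 rose by 0.79 and 0.52 and Rora by 0.41, while Ciart fell by 0.47. At 0 hr Cry1 averaged 7.92 and Cry2 7.57, against 7.47 and 7.04 at 20 hr and 8.26 and 7.56 at 40 hr. Of 40 Wnt pathway genes 7 rose and 2 fell, with the nuclear effector Lef1 at 8.99, 8.59 and 8.88 at 40 hr and 7.81, 7.78 and 7.75 at 20 hr (1.04 ± 0.087) and the secreted Wnt inhibitor Sfrp2 at -0.42. The 7 Wnt rises were 4 after median centring or without 20 hr replicate 1 and 3 without 40 hr replicate 1, and the Sfrp2 call was lost without replicate 2 of either time (adjusted p = 0.055 and 0.0744), as that of Ciart was without 20 hr replicate 2 (0.0523). A dimmer row of Sfrp2, with a mean of 8.11, differed by -0.13 (adjusted p in limma 0.553). Of 48 TGF-beta and BMP genes 2 rose and 8 fell, among them Inhba (-0.83) and the BMP antagonist Grem1 (-0.57), beside Id2 and Id3.

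Of 42 genes of the unfolded protein response and ATF4, 6 rose and 5 fell. The transsulfuration enzyme gene Cth read 9.98, 10.01 and 9.93 at 40 hr and 8.54, 8.72 and 8.63 at 20 hr (1.34 ± 0.076), and Xbp1 rose by 0.77, whereas Shmt2 and Psat1, of serine and glycine synthesis, fell by 0.96 and 0.73. Of 28 NRF2 genes 4 fell, led by Nqo1 (-1.08) and Gsta4 (-0.80), and 3 rose, among them Cbr3 (0.55). Of 24 p53 targets 3 rose (1 after median centring or without replicate 1 of either time) and 3 fell: Gtse1, which is also a G2 gene, fell by 1.0 and Trp53inp1 rose by 0.62. Of 40 interferon-stimulated genes 1 rose (0 without 40 hr replicate 1) and 3 fell, shares near those of all genes, with Ifit3 at 6.98, 7.27 and 6.28 at 40 hr and 7.81, 7.93 and 7.89 at 20 hr. The Ifit3 call (adjusted p = 0.0359) was lost in 9 of the alternative settings, which include leaving out any array but 40 hr replicate 2 (adjusted p = 0.0579 to 0.185).

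Cytosolic ribosomal proteins and ribosome biogenesis genes were called at shares near or below those of all genes. Of 67 cytosolic ribosomal proteins 2 rose, Rpl7a (0.47) and Rplp2 (0.44), and none fell, and of 57 ribosome biogenesis genes 2 rose, Gnl2 (0.28) and Myc (0.48). Without single arrays these rises numbered 0 to 1 and 1 to 2, with up to 2 falls. The ribosome biogenesis list stood 0.579 in median above 0 hr at 20 hr and 0.565 above it at 40 hr. Of 38 proteasome subunits 5 fell (13.2%, against 6.59% of all genes), led by Psmd10 (-0.38). There were 2 falls without 20 hr replicate 2, 1 without 40 hr replicate 2 and 2 without 40 hr replicate 3. Of 19 AP-1 and immediate early factors 4 rose (21.1%) and 3 fell (15.8%). Of 17 sirtuin and NAD synthesis genes 2 rose (11.8%, against 3.72% of all genes), Nnmt (0.79) and Nampt (0.39). The calls of Rpl7a, Rplp2 and Gnl2 were each lost in over 3 of the settings that left out 1 array, and that of Nampt without 20 hr replicate 3 or 40 hr replicate 2. Further rows of Rpl7a, with means of 7.86 and 7.81, differed by 0.12 and 0.13 (adjusted p in limma 0.492 and 0.423).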
